A study of Mus musculus with 119 samples.

Results

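Satellite cells of mice with a triple knockout (KO) of FoxO1, FoxO3a and FoxO4 were compared with those of wild-type (WT) mice, all at 21 days of age. Its members are the 7 RNA-seq libraries of 1 deposited table, 4 of KO genotype (KO21_02, KO21_36, KO21_39 and KO21_41) and 3 of WT genotype (WT21_75, WT21_79 and WT21_85), out of 119 samples in the series. They were chosen by table and genotype label alone, with no measured value. The labels give the genotypes as FoxO1,3a,4KO and FoxO1,3a,4WT, the gate as CD34All (no split by the amount of surface CD34), and no treatment. The sources used here do not give the Cre driver, the deleted exons or whether each library is 1 animal, so that the p-values measure the spread between these libraries, which may be partly technical. The cells were sorted from skeletal muscle as positive for α7-integrin and CD34 and negative for CD45, CD31 and Sca-1 and were lysed for RNA with no culture.

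Satellite cells are the stem cells of skeletal muscle. They lie under the basal lamina of the muscle fibre, enter quiescence during postnatal growth, and on activation express Myod1, divide, and either return to quiescence or express Myog and fuse. FoxO proteins are forkhead transcription factors. Growth factor signalling through PI3K and Akt phosphorylates FoxO1, FoxO3 and FoxO4 and keeps them out of the nucleus, and when this signalling is low they enter it and drive genes of cell-cycle arrest, antioxidant defence and autophagy. In the growing mouse, satellite cells still supply nuclei to growing fibres while a part of them becomes quiescent.

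Total counts ran from 43.1 M to 48.3 M in WT and from 24.1 M to 49.2 M in KO, with 15273 to 16333 genes detected per library. Log2 levels correlated at 0.964 to 0.975 between WT libraries and at 0.972 to 0.978 between KO21_02, KO21_36 and KO21_39. KO21_41, the shallowest library, stood apart, with correlations of 0.945 to 0.954 with the other KO libraries, and the first principal component (32.6% of variance) set it off from the other 6. On that component the WT libraries were at -39.1 to -14.1 and the KO libraries at -5.47 to 80.9. On the second (22.8%), KO21_41 (28.8) lay within the WT range (17.8 to 38.8), and the other KO libraries were at -42.7 to -26.1. Counts of each pair of libraries of the same genotype differed by more than sampling noise (chi-square over its degrees of freedom at least 52.1). Of the sort's markers, Itga7 was at 530 to 703 CPM (counts per M of the TMM-scaled library total) in all 7 libraries, whereas Ptprc (CD45) did not exceed 0.509 CPM, Ly6a (Sca-1) 5.66 CPM and Pecam1 (CD31) 16.3 CPM. Satellite cell markers were all present, with Cdh15 at 289 to 508 CPM and Vcam1 at 316 to 646 CPM. Sdc4 was lower in every KO library, at 1280 to 1677 CPM in WT and 796 to 1142 CPM in KO. Of the 10 sort and identity genes tested, 2 had a positive and 8 a negative log2 fold change (median -0.75). Their summed level was 3080 to 3917 CPM in WT and 2432 to 3070 CPM in KO. The lowest WT sum (WT21_85, 3080 CPM) and the highest KO sum (KO21_41, 3070 CPM) held 175 and 12.7 CPM of Cd34. The separation of the sums thus rests on Cd34.

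Foxo1 and Foxo4, 2 of the 3 genes named in the genotype, fell in every KO library. Foxo1 (chr3:52268336-52353221, plus strand, mm10) was at 99.3, 90.9 and 91.7 CPM in WT21_75, WT21_79 and WT21_85 and at 8.72, 11.5, 13.6 and 7.91 CPM in KO21_02, KO21_36, KO21_39 and KO21_41. The groups were far apart, with a log2 fold change of -3.17 (SE 0.22, edgeR quasi-likelihood test, adjusted p = 1.56e-05). Foxo4 (chrX:101254528-101260873, plus strand) was at 78.5, 91.4 and 83.7 CPM in WT and at 4.26, 4.87, 4.74 and 5.18 CPM in KO, a log2 fold change of -4.15 (SE 0.19, edgeR adjusted p = 3.67e-07). Foxo3, the mouse gene of FoxO3a (chr10:42181841-42276755, minus strand), was not lower. It was at 30.6, 23.4 and 22.3 CPM in WT and at 41.6, 45.1, 55.2 and 23.8 CPM in KO, with KO21_41 inside the WT range and the other 3 KO libraries above it (log2 fold change 0.70, SE 0.27, edgeR adjusted p = 0.261). A count over the whole gene does not check a deletion of part of it, so Foxo3 says nothing on its own allele here. Foxo6, the family member not named in the genotype, was at 16.1 to 18.7 CPM in WT and 18.9 to 37.5 CPM in KO (log2 fold change 0.77, edgeR adjusted p = 0.165). Of Foxo3 and Foxo6, 1 was called higher by limma voom with quality weights and 1 by edgeR without KO21_41.

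**Figure D1:**
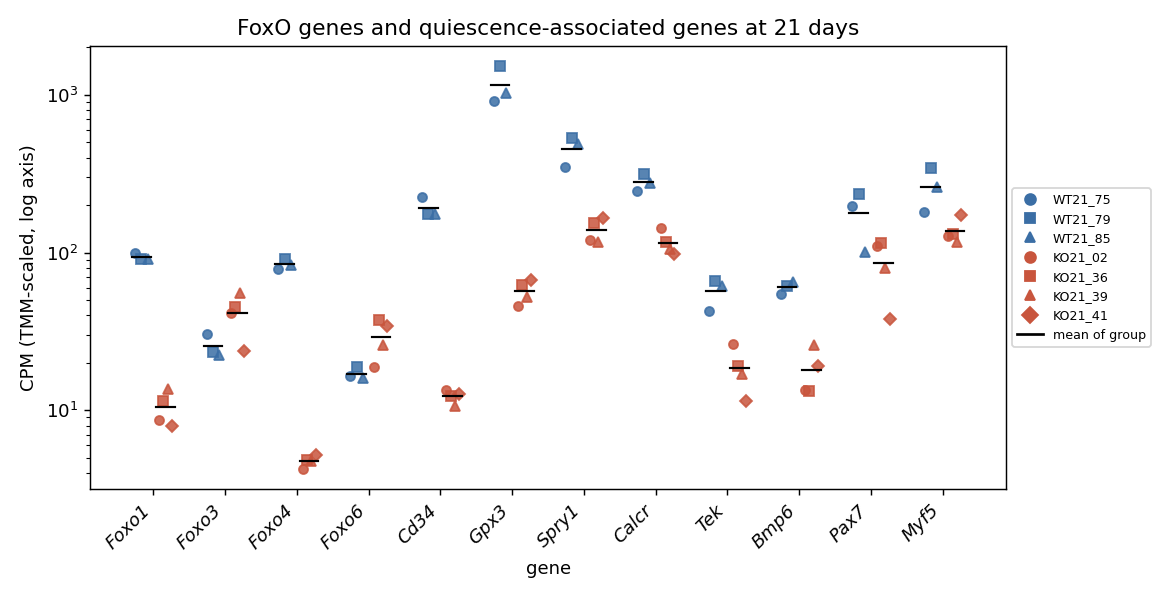
Level of each gene (x axis) in each library, in CPM on a log axis, with WT in blue, KO in red, 1 symbol per library and a bar at the mean of each group. Of the genes shown, Foxo1, Foxo4, Cd34 and Gpx3 fell by the widest margins, whereas Foxo3 was not lower in KO and the Pax7 levels of the groups overlapped.

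Across the transcriptome, 290 of 14200 genes tested changed at an adjusted p under 0.05 (2.04%), of which 126 were higher in KO (0.887%) and 164 lower (1.15%). The median log2 fold change of all genes tested was 0.0047. All KO libraries lay above all WT libraries in 912 genes (6.42%) and below them in 1066 (7.51%), and 288 of the 290 called genes were among these. The count of calls depended on single libraries. It was 522 without KO21_41 (277 higher, 245 lower), 177 without KO21_36, 177 without KO21_39 and 154 without WT21_79. In all, 118 of the 290 genes stayed past the threshold whichever library was left out, 51 of them higher and 67 lower.

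**Figure D2:**
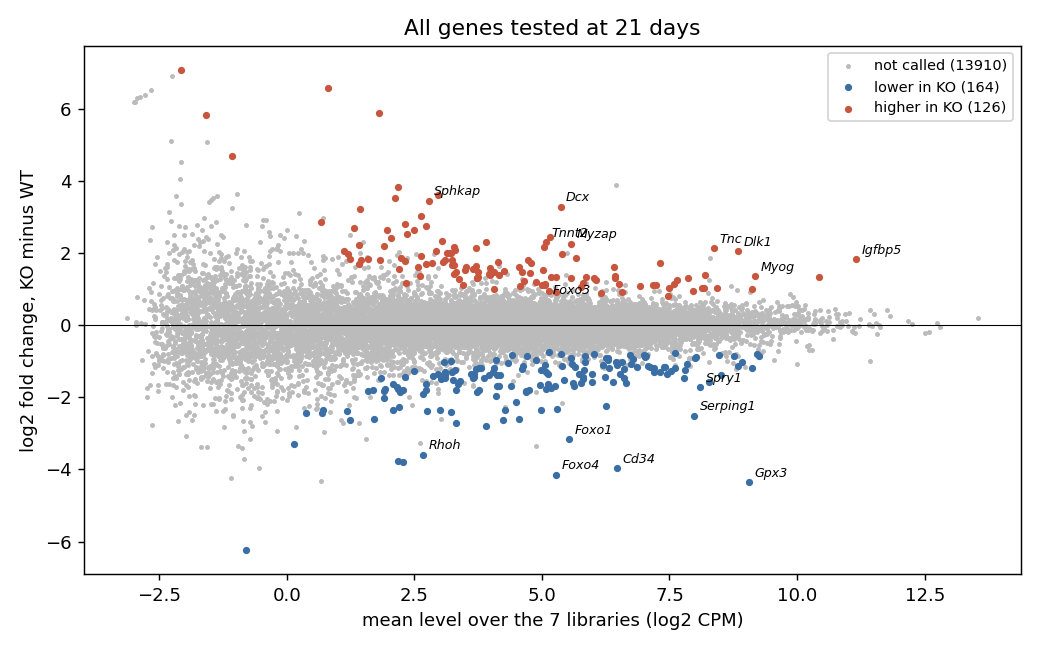
Log2 fold change of KO over WT (y axis) against the mean level over the 7 libraries (x axis, log2 CPM) for every gene tested, with the 126 genes called higher in red, the 164 called lower in blue and the others in grey. Gpx3, Foxo4, Cd34 and Foxo1 lie lowest among genes of moderate to high level, and Igfbp5 and Dlk1 are among the most abundant genes that rose.

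Quiescence-associated genes changed in both directions, with the widest changes downward. Of the 61 genes of this list tested, 7 fell and 3 rose (16.4% called, beside 2.04% of all genes tested). The median log2 fold change of the list was -0.16. Without KO21_41, 10 fell and 3 rose. The falls were in Gpx3, Cd34, Bmp6, Spry1, Tek, Bmp4 and Calcr.

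Gpx3, a secreted glutathione peroxidase (chr11:54902453-54910377, plus strand), was at 922, 1525 and 1033 CPM in WT and at 45.9, 62.1, 52.3 and 67.5 CPM in KO. Every KO library was far below every WT library, and the log2 fold change of -4.35 (SE 0.24, edgeR adjusted p = 1.24e-06) was the largest fall among called genes with a mean of at least 5 CPM. Cd34 (chr1:194938819-194961279, plus strand), the sialomucin on which the cells were sorted, was at 226, 175 and 175 CPM in WT and at 13.5, 12.4, 10.7 and 12.7 CPM in KO. The KO libraries differed little from each other, and the log2 fold change was -3.97 (SE 0.19, edgeR adjusted p = 3.67e-07). The sort required CD34 on the surface in both genotypes.

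Receptors and signalling regulators of quiescence were lower as well. Calcr, the calcitonin receptor that holds satellite cells in their niche, was at 247, 313 and 275 CPM in WT and at 143, 116, 105 and 97.9 CPM in KO (log2 fold change -1.27, SE 0.19, edgeR adjusted p = 0.00389). Spry1, an inhibitor of receptor tyrosine kinase signalling, was at 349, 534 and 488 CPM in WT and at 120, 154, 116 and 166 CPM in KO (log2 fold change -1.72, SE 0.21, edgeR adjusted p = 0.00126). Both genes had every KO library below every WT library and stayed past the threshold whichever library was left out. Tek, the receptor Tie2 for angiopoietins, was at 42.8, 66.1 and 61.4 CPM in WT and at 26.5, 19.1, 16.9 and 11.5 CPM in KO (log2 fold change -1.62, SE 0.27, edgeR adjusted p = 0.00804). Bmp6, a ligand of the bone morphogenetic protein family, was at 54.4, 61.7 and 65.2 CPM in WT and at 13.4, 13.3, 25.9 and 19.2 CPM in KO (log2 fold change -1.75). Its relative Bmp4 had a log2 fold change of -1.60, but this call was lost in 5 of the 7 omissions of 1 library.

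The lineage genes themselves gave no call by edgeR with all 7 libraries. Of the 10 sort and identity genes, edgeR called 1 lower (Cd34), DESeq2 2 and voom 3, with 1 to 2 lower in the omissions of 1 library. Pax7, the transcription factor that marks satellite cells, was at 198, 235 and 101 CPM in WT and at 109, 115, 79.9 and 37.7 CPM in KO (log2 fold change -1.06, edgeR adjusted p = 0.184). WT21_85 lay within the KO range. Myf5 was at 180, 346 and 260 CPM in WT and at 127, 132, 117 and 173 CPM in KO, so that the groups did not overlap, but its adjusted p was 0.0612 (edgeR, log2 fold change -0.93).

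Of 43 genes of myogenic commitment and early differentiation tested, 12 rose and 1 fell, and 30 did not pass the test. The share called was 30.2%, beside 2.04% of all genes tested. The list had a median log2 fold change of 0.75 against 0.0047 for all genes. In 21 of the 43 all KO libraries lay above all WT libraries, beside 6.42% of all genes tested. Leaving out 1 library gave 9 to 14 rises and 0 to 2 falls.

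Myog, the transcription factor of terminal differentiation (chr1:134289989-134292548, plus strand), was at 268, 355 and 295 CPM in WT and at 799, 1031, 542 and 777 CPM in KO. Its log2 fold change was 1.36 (SE 0.23, edgeR adjusted p = 0.00864), and it stayed past the threshold in every omission. Tmem8c, which encodes the fusogen myomaker, was at 39.9, 53.2 and 43.3 CPM in WT and at 96.3, 148, 96.0 and 131 CPM in KO (log2 fold change 1.37, edgeR adjusted p = 0.00569). Myod1, which acts before Myog, was at 332, 839 and 952 CPM in WT and at 626, 956, 1149 and 1373 CPM in KO, and the groups overlapped (log2 fold change 0.54, edgeR adjusted p = 0.558).

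Contractile genes of embryonic and neonatal muscle were among the rises. Actc1, cardiac actin, was at 146, 137 and 173 CPM in WT and at 364, 451, 309 and 481 CPM in KO (log2 fold change 1.40). Myh3, embryonic myosin heavy chain, was at 2.85, 3.61 and 3.80 CPM in WT and at 13.6, 14.6, 13.3 and 13.5 CPM in KO (log2 fold change 2.01). Tnnt2, cardiac troponin T, was at 8.82, 7.04 and 15.5 CPM in WT and at 38.8, 40.8, 42.9 and 83.6 CPM in KO (log2 fold change 2.30), with KO21_41 highest. Myh8, perinatal myosin heavy chain (log2 fold change 2.07), Chrng, the fetal acetylcholine receptor subunit (1.42), Tnnt1, slow troponin T (1.33), and Fndc5 (1.31) also rose and kept their calls in every omission. Tnni1 (log2 fold change 1.77), Klhl41 (1.14) and Rbm24 (0.93) rose too, but lost the call in 4, 3 and 6 omissions. The fall was in Boc, a surface receptor of myoblasts (log2 fold change -0.80, edgeR adjusted p = 0.0485), which lost the call in 6 omissions and under 2 other scalings.

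Of 37 genes of mature fibres tested, 8 rose and 1 fell (24.3% called, beside 2.04% of all genes tested), with a median log2 fold change of 1.22. The summed level of all 40 genes of the list was 1339 to 1406 CPM in WT and 1953 to 2209 CPM in KO. The number of rises was 13 without KO21_41 and 3 to 5 without any one of the other 6 libraries, with 3 without WT21_79 or KO21_36. Acta1, skeletal actin, was at 46.2, 67.9 and 89.6 CPM in WT and at 143, 228, 240 and 295 CPM in KO (log2 fold change 1.74, SE 0.28, edgeR adjusted p = 0.00696). Actn2, sarcomeric α-actinin, had a log2 fold change of 1.63 and, like Acta1, kept its call in every omission. Myl1 (1.76), Tnnc2 (2.86), Myom2 (2.05), Myh2 (1.83), Pvalb (1.81) and Ryr1 (1.10) each lost the call in 1 or more omissions. Mybpc1, slow myosin binding protein C, went the other way, from 84.5, 93.9 and 85.9 CPM in WT to 36.4, 31.2, 33.0 and 25.7 CPM in KO (log2 fold change -1.48). The summed fibre genes moved with genotype beside the commitment genes, and the part of RNA from fibres in the rises of either list was not tested.

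**Figure D3:**
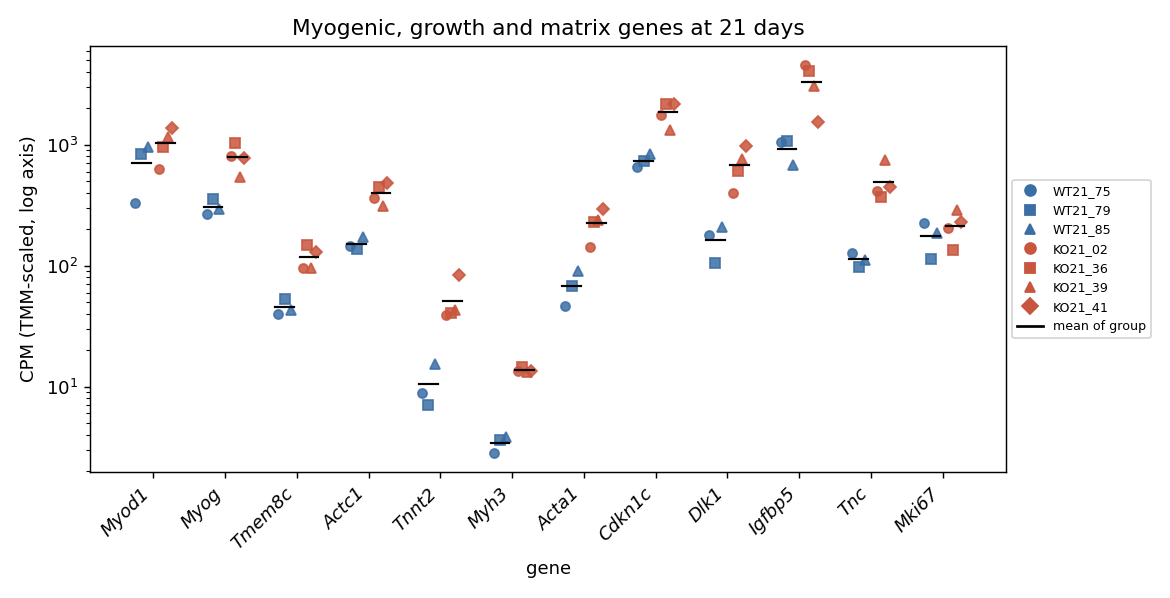
Level of each gene (x axis) in each library, in CPM on a log axis, with WT in blue, KO in red, 1 symbol per library and a bar at the mean of each group. Myog, Tmem8c, Actc1, Tnnt2, Myh3, Acta1, Cdkn1c, Dlk1, Igfbp5 and Tnc have all KO libraries above all WT libraries, whereas Myod1 and Mki67 overlap.

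Of 77 cell-cycle genes tested, 0 passed the edgeR threshold in either direction and 2 had an unadjusted p under 0.05. DESeq2 and voom each called 1 higher, as did edgeR without KO21_41. The median log2 fold change was 0.11, and it was -0.11 without KO21_41 and -0.13 without WT21_79, so that it carried no stable sign. Mki67, a marker of cycling cells, was at 225, 114 and 185 CPM in WT and at 205, 136, 288 and 230 CPM in KO. Ccnd1, which encodes cyclin D1, was at 188 to 329 CPM in WT and 230 to 312 CPM in KO.

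Of 16 cell-cycle inhibitors 1 was called (6.25%, beside 2.04% of all genes tested), and 1 to 3 rose with 1 library left out. Cdkn1c, which encodes p57, was at 650, 730 and 836 CPM in WT and at 1769, 2179, 1330 and 2184 CPM in KO (log2 fold change 1.34, SE 0.22, edgeR adjusted p = 0.00751), with no overlap. It is a member of the quiescence list and also an imprinted gene. Cdkn1a (p21; log2 fold change 0.21) and Cdkn1b (p27; -0.16), both FoxO targets in other cells, had levels that overlapped between the groups.

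Dlk1, a second imprinted gene and a non-canonical Notch ligand (chr12:109452823-109463336, plus strand), was at 178, 106 and 208 CPM in WT and at 399, 606, 763 and 967 CPM in KO. Every KO library was above every WT library (log2 fold change 2.06, SE 0.32, edgeR adjusted p = 0.00524). Cdkn1c and Dlk1 were the 2 genes called among 23 of the imprinted growth network (8.70%, beside 2.04% of all genes tested). Of these 23, 2 to 4 rose and 0 to 1 fell with 1 library left out. Dlk1 was also the 1 gene called among 41 of the Notch pathway, a share (2.44%) near the 2.04% of all genes tested. In this list Notch3 had a log2 fold change of -0.97 (edgeR adjusted p = 0.0879), and the target genes Hes1 (0.43), Hey1 (0.56) and Heyl (-0.02) were not called. The third rise in the quiescence list was Cxcl14 (log2 fold change 1.05), which lost its call in 5 omissions.

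Of 53 textbook FoxO targets tested, 3 fell and 2 rose (9.43% called, beside 2.04% of all genes tested), and 40 had a negative log2 fold change, with a list median of -0.26. Leaving out 1 library gave 1 to 6 falls and 0 to 2 rises. Sepp1, a selenium carrier protein, was at 218, 200 and 194 CPM in WT and at 105, 89.7, 80.7 and 88.6 CPM in KO (log2 fold change -1.16, SE 0.17, edgeR adjusted p = 0.00348), and its call held in every omission. Gabarapl1, a protein of the autophagosome membrane (log2 fold change -1.20), and Glul, glutamine synthetase (-0.85), lost theirs in 5 omissions each.

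The rises among these targets were in S1pr1, a receptor for sphingosine 1-phosphate (log2 fold change 1.45, edgeR adjusted p = 0.0285, lost in 3 omissions), and Trim63, the ubiquitin ligase MuRF1. Trim63 had 1, 0 and 0 counts in WT and 9, 22, 29 and 21 counts in KO, so that it was barely expressed in either group. Irs2 (log2 fold change -1.29, edgeR adjusted p = 0.135), Pdk4 (-1.17, adjusted p = 0.118) and Klf15 (-1.31, adjusted p = 0.17), targets known from liver and muscle, were not called. Of 54 autophagy and lysosome genes, edgeR called Gabarapl1 (1.85%, beside 2.04% of all genes), whereas DESeq2 called 4 lower and voom 6 lower.

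In the pathway upstream of FoxO, 4 of 47 genes of IGF, insulin, PI3K and Akt signalling were called, 2 in each direction. This was 8.51%, beside 2.04% of all genes tested. The omissions of 1 library gave 0 to 5 rises and 1 to 5 falls, with the most of each without KO21_41. Igfbp5, an IGF binding protein, was at 1043, 1065 and 680 CPM in WT and at 4534, 4076, 3073 and 1535 CPM in KO (log2 fold change 1.83, SE 0.34, edgeR adjusted p = 0.0132). KO21_41 was lowest of the KO libraries, and without WT21_85 the adjusted p was 0.0648. Igfbp3 was at 58.8, 34.6 and 47.3 CPM in WT and at 102, 105, 101 and 154 CPM in KO (log2 fold change 1.30), and it lost its call without WT21_79 and without WT21_85. Igf1r, the IGF1 receptor, fell from 175, 211 and 207 CPM to 89.4, 72.7, 129 and 66.4 CPM (log2 fold change -1.14, edgeR adjusted p = 0.0213, lost in 4 omissions). Pik3ip1, an inhibitor of PI3K, fell with a log2 fold change of -1.64, and its adjusted p was 0.0627 without WT21_79. Igfbp5 was also the 1 gene called among 8 that FoxO is described as repressing (12.5%, beside 2.04% of all genes tested).

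Of 43 antioxidant genes, 28 had a positive and 15 a negative log2 fold change (median 0.11). By edgeR 3 fell (6.98%, beside 2.04% of all genes tested called in either direction), and 0 rose by edgeR, DESeq2 or voom. The 3 were Gpx3, Sepp1 and Sod3 (extracellular superoxide dismutase, log2 fold change -1.07, lost in 4 omissions). With 1 library left out, 2 to 5 fell. Gpx3, Sepp1 and Sod3 encode secreted proteins. The mitochondrial and peroxisomal enzymes Sod2 (log2 fold change 0.27), Prdx3 (0.48) and Cat (0.26) were not called. Of the glycolysis genes, 1 of 24 rose (4.17%, beside 2.04% of all genes tested called in either direction), and without WT21_75 2 glycolysis genes fell. The rise was in Hk2 (hexokinase 2), from 99.0, 134 and 143 CPM to 306, 308, 355 and 284 CPM (log2 fold change 1.32, edgeR adjusted p = 0.00351). Of 74 genes of oxidative phosphorylation 72 had a positive log2 fold change (median 0.30), but 0 were called by edgeR, DESeq2 or voom and 12 had an unadjusted p under 0.05. The median was 0.098 without KO21_41. Of 76 cytosolic ribosomal protein genes 0 were called by edgeR, DESeq2 or voom and 3 had an unadjusted p under 0.05.

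The extracellular matrix changed in both directions, with 3 of 49 genes higher and 3 lower (12.2% called, beside 2.04% of all genes tested). The number of rises was 5 without KO21_41 and 1 without any of WT21_79, WT21_85, KO21_02, KO21_36 and KO21_39. Tnc, the matrix glycoprotein tenascin C, was at 127, 98.3 and 112 CPM in WT and at 418, 368, 744 and 451 CPM in KO (log2 fold change 2.14, SE 0.26, edgeR adjusted p = 0.00126). Adamts5, a protease that cleaves proteoglycans, was at 77.0, 105 and 79.9 CPM in WT and at 35.1, 28.7, 30.2 and 34.3 CPM in KO (log2 fold change -1.45). Both held in every omission, as did the fall of the integrin subunit gene Itga3 (-1.38). Vcan (versican; log2 fold change 1.26), Timp1 (an inhibitor of metalloproteinases; 0.99) and Mmp2 (gelatinase A; -1.39) lost their calls in 5, 6 and 3 omissions. The list of Wnt, BMP, TGF-β and FGF signalling does not hold Bmp4 or Bmp6. Of its 66 genes tested, 3 were called (4.55%, beside 2.04% of all genes tested). Spry1 and Tgfbr3 (betaglycan, log2 fold change -1.45, lost in 3 omissions) fell and Sfrp2, a secreted Wnt modulator, rose (2.14). Across the omissions of 1 library 1 to 3 rose and 1 to 3 fell.

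**Figure D4:**
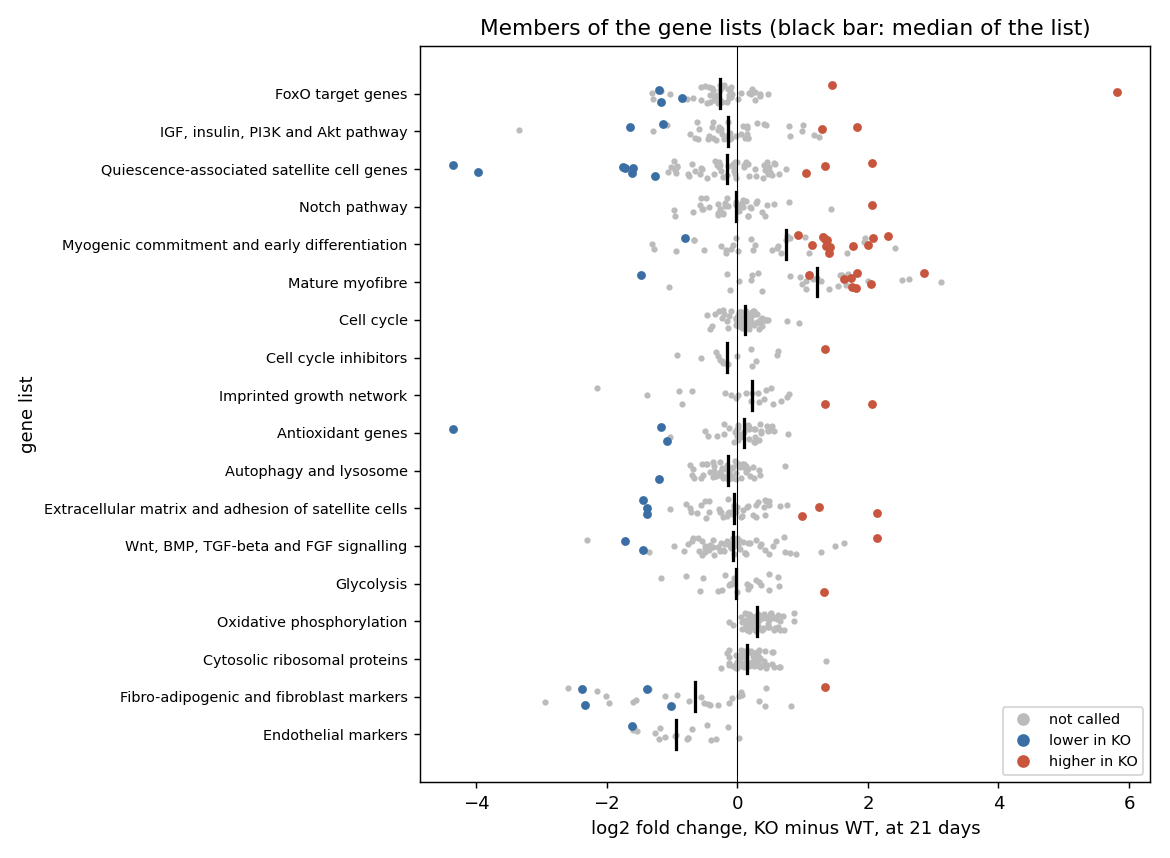
Log2 fold change of KO over WT (x axis) for each member tested of 18 gene lists (y axis), with members called higher in red, called lower in blue and not called in grey, and a black bar at the median of each list. The myogenic and fibre lists are shifted to the right, the endothelial and fibroblast lists to the left, and the quiescence list holds the 2 members with the largest falls, Gpx3 and Cd34.

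Several of the largest rises were in genes outside the lists. Dcx, which encodes the microtubule-binding protein doublecortin, was at 7.73, 7.96 and 4.88 CPM in WT and at 90.8, 63.5, 75.1 and 38.9 CPM in KO (log2 fold change 3.29, SE 0.32, edgeR adjusted p = 0.000257). Sphkap (log2 fold change 3.45), Myo16 (2.76), the contactin gene Cntn1 (2.64), Clstn2, a calsyntenin (2.45), and the adenosine receptor gene Adora1 (2.16) rose from 0.574 to 13.6 CPM in WT to 4.35 to 66.7 CPM in KO. Myzap was at 14.3 to 15.7 CPM in WT and 60.3 to 80.4 CPM in KO (log2 fold change 2.27, edgeR adjusted p = 9.56e-05), and the sarcomere-associated genes Trim55 and Ankrd2 had log2 fold changes of 2.32 and 2.17. The unnamed model Gm11549 (3.04) and Plet1 (2.53) also rose and, like the other rises of this paragraph, kept their calls in every omission.

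The largest falls also included Rhoh, at 11.5, 15.8 and 12.8 CPM in WT and 1.48, 1.35, 0.617 and 1.01 CPM in KO (log2 fold change -3.59, SE 0.33, edgeR adjusted p = 0.000189). Serping1, which encodes the C1 inhibitor of the complement cascade, was at 449, 619 and 371 CPM in WT and at 85.7, 87.4, 71.7 and 91.6 CPM in KO (log2 fold change -2.51, edgeR adjusted p = 8.31e-05). Hsd11b1, the enzyme that regenerates active glucocorticoid, was at 37.4, 30.2 and 40.2 CPM in WT and at 4.43, 4.12, 4.96 and 10.1 CPM in KO (log2 fold change -2.62, edgeR adjusted p = 0.00112). All 3 separated the groups completely. Lama3 (a laminin chain; log2 fold change -2.80), Grik3 (a kainate receptor subunit; -2.72), Cacna1d (a calcium channel subunit; -2.60), Ano5 (-2.41), Otoa (-2.35), the amino acid transporter gene Slc7a8 (-2.35) and Adamtsl1 (-2.34) also fell and kept their calls in every omission. Fmod, fibromodulin (log2 fold change -2.39), was at 26.2 CPM in WT21_75 against 3.63 and 7.38 CPM in the other WT libraries and was not called without WT21_75 (edgeR adjusted p = 0.206) or in 3 other omissions.

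The summed level of 19 endothelial markers was 179 to 295 CPM in WT and 104 to 154 CPM in KO. The lowest WT sum (WT21_85, 179 CPM) and the highest KO sum (KO21_36, 154 CPM) held 61.4 and 19.1 CPM of Tek. The separation of the sums thus rests on Tek. Of the 19, 18 had a negative log2 fold change (median -0.93). In 4 of them all KO libraries lay below all WT libraries, beside 7.51% of all genes tested. Tek was the 1 gene called by edgeR (5.26%, beside 2.04% of all genes tested), with 3 lower by DESeq2 and 2 by voom. The defining gene Cdh5 was at 6.46 to 15.4 CPM in WT and 1.02 to 8.65 CPM in KO, and Kdr at 2.01 to 5.60 CPM and 0.220 to 1.72 CPM. The part of endothelial RNA in the fall of Tek and of other genes was not tested. Fewer cells of a type and less RNA per cell cannot be told apart in bulk RNA.

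Of 30 fibro-adipogenic and fibroblast markers, 4 fell (Cd55, Fmod, Mmp2 and Bmper) and 1 rose (Adam12), with a median log2 fold change of -0.65. The share called was 16.7%, beside 2.04% of all genes tested. Without WT21_75, 1 fell and the median was -0.32, without KO21_39, 1 fell, and without KO21_02, 2 fell. Fmod lost its call in 4 omissions, Mmp2 in 3, Bmper in 6 and Adam12 in 5. The summed level was 9833 to 12828 CPM in WT and 9956 to 11578 CPM in KO, and overlapped. Pdgfra, a defining gene, was at 1.85 to 3.40 CPM in WT and 0.395 to 1.11 CPM in KO, and Dcn was at 185 CPM in WT21_75 and 10.7 to 31.0 CPM elsewhere. WT21_75 also had the highest Schwann and neural sum, at 3512 CPM against 1240 to 1811 CPM in the other 6. Without WT21_75 the calls of Cd34, Gpx3, Serping1, Calcr and Spry1 held.

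Of 13 immune markers tested 0 were called by edgeR, with 2 at an unadjusted p under 0.05, DESeq2 called 1 lower, and without WT21_85 edgeR called 2 lower. The summed level of all 23 was 13.2 to 43.3 CPM in WT and 11.2 to 16.2 CPM in KO. Pericyte and smooth muscle markers (15 tested) and Schwann and neural markers (14) gave 0 calls by edgeR, with 4 and 2 at an unadjusted p under 0.05. DESeq2, voom and edgeR without a filter each called 1 pericyte and smooth muscle marker lower, and 0 Schwann and neural markers. Of 9 red blood cell genes 7 were at 0 in all libraries and none was tested. Of 52 immediate early and dissociation stress genes, Dusp1 fell (log2 fold change -0.86, lost in 5 omissions) and Klf10 rose (1.12, lost in 3), and the summed levels overlapped. The share called was 3.85%, beside 2.04% of all genes tested. Of 44 interferon and antigen presentation genes, Ifit1 rose from 0.781 to 0.912 CPM in WT to 2.81 to 4.48 CPM in KO (2.27% of the list called, beside 2.04% of all genes), and it lost its call in 3 omissions. The Y-linked gene Ddx3y was at 165 to 276 CPM in all 7 libraries.

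Promoter sequences show where the FoxO recognition letters lie in a few of these genes. The letters searched were GTAAACA, with its reverse complement TGTTTAC counted as the same motif on the other strand, from 250 bases before to 50 after the start sites of RefSeq (GRCm38.p6), in 10635 of the 14200 genes tested. At least 1 match stood in 10 of 122 genes called lower (8.20%), in 2 of 87 called higher (2.30%) and in 312 of all 10635 (2.93%). With TTGTTTAC, which contains TGTTTAC, the shares were 3.28%, 1.15% and 0.931%. With the shorter TGTTT, contained in both, they were 50.8%, 47.1% and 41.6%. Of the genes with a match, 3 are shown: Hsd11b1, which had 1 of the 15 largest falls, Ndrg2, which also fell, and Dlk1, which rose. The KO effect of Ndrg2 differed from that in another experiment of the series, but among the omissions this call held only without WT21_85. Whether age accounts for that difference was not tested. Each stretch is printed 5′ to 3′ along the gene with the motif in capitals.
Hsd11b1: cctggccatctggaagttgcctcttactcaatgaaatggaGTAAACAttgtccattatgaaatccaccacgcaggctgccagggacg
Ndrg2: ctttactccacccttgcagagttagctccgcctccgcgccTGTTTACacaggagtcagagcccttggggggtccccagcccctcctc
Dlk1: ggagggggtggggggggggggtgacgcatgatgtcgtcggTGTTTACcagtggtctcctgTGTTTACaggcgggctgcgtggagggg
The Hsd11b1 stretch is chr1:193242452-193242538 (minus strand), with the match starting 138 bases before a RefSeq start site. This site and the whole stretch lie inside the gene span of GENCODE (chr1:193221634-193264075), not at its 5′ end. The Ndrg2 stretch is chr14:51914112-51914198 (minus strand), with the match 154 bases before a RefSeq start site. This site also lies inside the gene span (chr14:51905271-51914158), and the stretch crosses the 5′ end of that span. Ndrg2, a stress-responsive gene, was at 77.2, 84.0 and 58.7 CPM in WT and at 32.2, 30.4, 35.1 and 32.9 CPM in KO (log2 fold change -1.17). The Dlk1 stretch is chr12:109452696-109452782 (plus strand), with matches 87 and 67 bases before the RefSeq start site. The other gene called higher with a match was Trim63, and the other genes called lower were Ypel3, Hmcn1, 9330159F19Rik, Adamts13, Pim1, Wbp1l, Tprgl and Pde1c. These are matches of letters, not measured binding.

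Of the other experiments of the series with this genotype contrast, 2 were set beside the one at 21 days, with which they share no library. One used young mice, with tables titled as taken 30 days after tamoxifen (2 KO and 3 WT libraries), and the other old mice of 22 months (3 KO and 3 WT). The title of the table at 22 months also carries the letters APP, whose meaning is not known here, so what else may set those libraries apart is unknown. Each was fitted alone, and the difference between the KO effects was tested as an interaction. In the young table the leading number strings of the column headers differ between all KO and all WT columns, so that genotype and whatever these strings mark cannot be told apart. At 22 months the KO libraries had at most 21.5 M counts and the WT libraries 27.3 M to 57.7 M.

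The direction of change was shared by most genes called at 21 days. In young mice 14 of 13562 genes were called (0.103%; 0.059% higher and 0.0442% lower), and at 22 months 141 of 13373 (1.05%; 0.785% higher and 0.269% lower). Of the 126 genes higher at 21 days, 109 of 120 tested had the same sign in young mice and 106 of 116 at 22 months. Of the 164 lower genes, 151 of 164 and 140 of 162 had the same sign. The share of equal sign over all genes tested was not computed, so these counts have no background beside them. At 22 months 19 of the higher genes were called in the same direction (15.1% of the list at 21 days and 18.1% of that at 22 months) and 15 of the lower genes (9.15% and 41.7%). In young mice 3 higher genes (2.38% and 37.5%) and 4 lower genes (2.44% and 66.7%) were called again, and 0 of the 290 were called in the other direction in either experiment.

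Cd34, Dlk1 and Tnc had the same sign at each age. The log2 fold change of Cd34 was -2.97 in young mice (SE 0.49, edgeR adjusted p = 0.0887) and -4.24 at 22 months (SE 0.78, adjusted p = 0.041). That of Dlk1 was 2.50 (SE 0.33, adjusted p = 0.0416) and 5.21 (SE 0.48, adjusted p = 0.00445). That of Tnc was 2.39 (SE 0.25, adjusted p = 0.0268) and 3.10 (SE 0.52, adjusted p = 0.0328). For none of the 3 did the interaction pass the threshold, with the lowest adjusted p at 0.0537, for Dlk1 against 22 months.

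None of the 12 myogenic genes that rose at 21 days was called by edgeR in either other experiment (Tnni1 was not tested at 22 months), and their values there were smaller for some and larger for others. Tnnt2 had a log2 fold change of 1.95 in young mice and 3.28 at 22 months, and Chrng of 1.70 and 2.31. Myh3 had 0.51 and 0.35. Myog had a log2 fold change of 0.88 in young mice (SE 0.38, edgeR adjusted p = 0.85) and of 0.88 at 22 months (SE 1.01, adjusted p = 0.727), and its WT level was 268 to 355 CPM at 21 days, 22.4 to 49.7 CPM in young mice and 0.454 to 14.5 CPM at 22 months. Cdkn1c had a log2 fold change of 0.79 in young mice and -0.05 at 22 months. For Myog and Cdkn1c neither interaction passed the edgeR threshold (Myog adjusted p = 1 and 0.821, Cdkn1c 0.974 and 0.194), so that a difference between ages was not shown for either gene.

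The KO effect at 21 days differed from that in young mice in 8 of 15173 genes (0.0527%) and from that at 22 months in 14 of 14969 (0.0935%; 0.0334% with a higher and 0.0601% with a lower value at 21 days). The fall of Gpx3 was larger at 21 days than in young mice, where its mean was 2655 CPM in WT and 779 CPM in KO (difference of log2 fold changes -2.55, SE 0.34, edgeR adjusted p = 0.021). This call was lost without WT21_85, KO21_36 or KO21_39, with adjusted p up to 0.0688. Against 22 months, Foxo4 (difference -3.27, SE 0.40, edgeR adjusted p = 0.00917) and Foxo1 (-2.55, SE 0.40, adjusted p = 0.0261) differed. Foxo4 lost its call without WT21_79 (adjusted p = 0.0504), and Foxo1 in 6 of the 7 omissions, with adjusted p up to 0.106. In the libraries labelled KO at 22 months Foxo1 was at 24.4 to 47.0 CPM, against 32.4 to 62.1 CPM in WT, and Foxo4 at 15.7 to 27.3 CPM against 20.4 to 49.3 CPM, so that the targeted genes overlapped there, unlike at 21 days. Statements on the KO effect at 22 months rest on those labels.

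**Figure D5:**
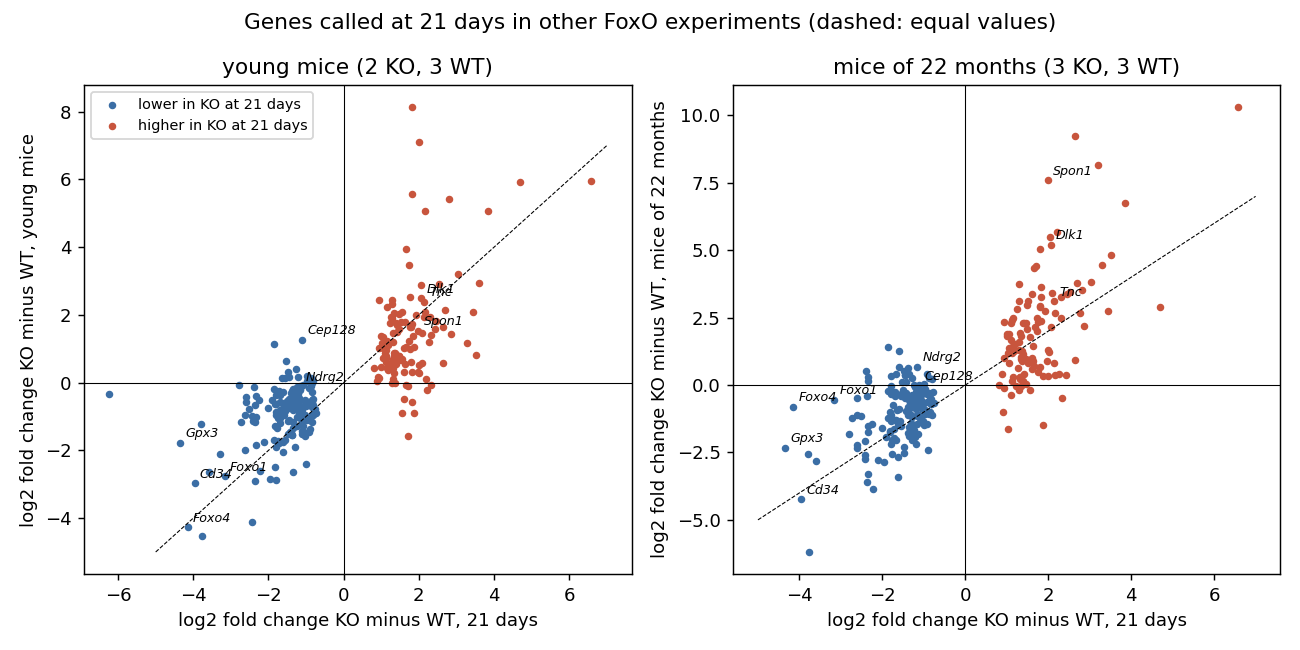
Log2 fold change of KO over WT at 21 days (x axis) against that in young mice (left) and in mice of 22 months (right) for the genes called at 21 days, with those higher in red and those lower in blue and a dashed line of equal values. Most points lie in the quadrants of equal sign, and Foxo1 and Foxo4 lie near 0 on the y axis at 22 months but not in young mice.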

How the data were processed

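RNA of sorted satellite cells was sequenced from libraries made with the SMART-Seq v4 low-input and Nextera XT kits, per the labels' protocols. The deposited values are raw read counts per gene symbol (24421 symbols), which the authors did not scale. The submitters' processing notes name bcl2fastq 2.17.1, Trim Galore, TopHat2 2.1.1, Partek 7.0, HTSeq and the mouse build mm10. The annotation, the strand setting and the counting mode were not given in the sources used here, so overlapping and near-identical genes may share reads. Columns were assigned to genotypes by their headers.

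The 7 libraries at 21 days were fitted in R 4.3.3 with edgeR 4.0.16: filterByExpr (minimum count 10, minimum total 15), TMM, quasi-likelihood F-test, Benjamini-Hochberg adjustment over all genes tested, threshold 0.05. Of the symbols, 10221 were filtered out as low. Differences between experiments were interaction terms in joint fits of 4 groups. The scripts were tested on simulated data. Gene positions are from GENCODE M21 on mm10. Alternatives used DESeq2 1.42.0, limma 3.58.1 (voom with quality weights), other size factors, other filters and the omission of each library.

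The text names the 15 largest rises and the 15 largest falls among called genes with a mean of at least 5 CPM and no overlap between groups, the FoxO genes, up to 6 called members of each gene list per direction, and markers. Some genes that this rule names are not reported here. Other members named were chosen after their values were seen. The comparison and the lists were chosen with earlier results of this series known. Depth was 24.1 M to 49.2 M counts per library.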

Additional observations from a re-analysis of the deposited data

Results flagged for a closer look

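In 8 of 105 named genes tested, 1 of the 4 KO libraries lay far from the other 3, measured as its gap to the nearest library over the range of the group on the log2 scale. Chance gives about 1 in 20 groups. KO21_41 was that library in 5 of the 8. It was high for Plet1 (13.3 CPM, ratio 0.896), Tnnt2 (83.6 CPM, 0.869), Igfbp3 (154 CPM, 0.893) and Blnk (40.3 CPM, 0.873), and low for Clstn2 (30.5 CPM, 0.924). In the other 3 genes KO21_36 was high for Cdkn1b (107 CPM, 0.848), KO21_39 was low for Tnnt1 (44.6 CPM, 0.849) and KO21_02 was high for Cd55 (1.96 CPM, 0.848).

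For 6 of the named genes the KO effect at 21 days differed from that in another experiment by the interaction test of edgeR. The difference of log2 fold changes was -2.55 for Gpx3 (adjusted p = 0.021) and -2.35 for Cep128, a centrosomal protein gene (adjusted p = 0.021), against young mice. Against 22 months it was -3.27 for Foxo4 (adjusted p = 0.00917), -2.55 for Foxo1 (adjusted p = 0.0261), -1.77 for Ndrg2 (adjusted p = 0.0294) and -5.52 for Spon1, which encodes the matrix protein spondin 1 (adjusted p = 0.0334). Cep128 fell at 21 days (log2 fold change -1.11) and had a value of 1.27 in young mice. Ndrg2 fell at 21 days (-1.17) and had a value of 0.68 at 22 months. Spon1 rose at 21 days (1.98) and rose further at 22 months (7.59), where its WT mean was 0.982 CPM. Each of these 6 differences lost its call in 1 or more omissions of a 21-day library.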

How the results depend on the processing

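The 290 calls at 21 days (126 higher, 164 lower) became 700 with DESeq2 (348 and 352) and 724 with limma voom quality weights (334 and 390). Other scalings and filters gave 281 to 426. Omitting 1 library gave 154 to 522 calls, 72 to 277 higher and 82 to 245 lower. In all, 267 of the 290 kept their call under every setting other than omissions. The 8 differences from young mice became 98 with DESeq2 and 1 to 7 with 1 library omitted. The 14 differences from 22 months became 659 with DESeq2, 105 without a filter and 0 to 15 with 1 library omitted, the 0 being without WT21_79. No called gene among those named reversed. Of the named genes not called, 4 were called in at least 1 other setting. Uncalled genes that turned sign under an omission, with their range over the omissions, were Itga7 (-0.131 to 0.041), Ptprc (-0.438 to 0.720), Ddx3y (-0.050 to 0.213), Cdkn1b (-0.250 to 0.0134), Pcna (-0.253 to 0.238), Rpl4 (-0.090 to 0.154), Des (-0.404 to 0.040) and Ncam1 (-0.105 to 0.084). With voom, Pcna (-0.149), Rpl4 (-0.060) and Ncam1 (0.0085) turned. The cause was not tested. No paired analysis was possible because the columns carry no replicate numbers shared between the groups. Depth limits statements on genes near 0, such as Trim63 and Ptprc.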
